A study of Mus musculus with 2 samples.

Results

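The keratin gene family was examined in cultures of mouse mammary basal cells grown alone or beside macrophages. Its members were taken by name, as each gene of the deposited table whose symbol is Krt followed by a number and at most 1 letter, which gave 54 of 49492 genes. Keratin-associated proteins and pseudogenes named otherwise, such as Krt8-ps, were not members. Krt74, which GENCODE M21 lists as a pseudogene, matched the name and is counted among the members. It had no read in either library. Basal cells (lin-CD24+CD29hi) were sorted from the mammary glands of adult female mice of WT genotype, embedded in a 3D matrix and cultured for 11 to 14 days in medium with EGF and ITS. The ctrl cultures received no treatment. The M2 cultures shared their wells with macrophages that had been derived from bone marrow, polarised with Il-4 and Il-13 and placed in a porous insert, and these macrophages were renewed during the culture. Each group is 1 library, and the sources used here do not say how many mice or wells went into it. Both labels call the cells epithelial cells. A difference between these libraries has no replicate check and cannot be set against the spread between cultures, so no p-value is given. In RNA of a whole culture, fewer cells of a type and less RNA per cell cannot be told apart.

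Keratins are the intermediate filament proteins of epithelial cells. A filament is built from pairs of an acidic type I and a basic type II keratin, and the pair that a cell makes marks its place in an epithelium. Krt5 and Krt14 mark the basal layer of stratified epithelia and the outer, basal layer of the mammary duct. Krt8 and Krt18 mark simple epithelia and the inner, luminal layer of the duct, where Krt7 and Krt19 are also made. Krt1 and Krt10 belong to the cornifying layers of skin, Krt4 and Krt13 to the moist lining of mouth and oesophagus, and Krt6a, Krt6b, Krt16 and Krt17 to hair follicles and to skin after injury. Other members build the root sheath and shaft of hair.

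The ctrl library held 26912610 reads in genes and the M2 library 29413844. Keratins took 264414 reads in ctrl, 0.983% of the library (95% Wilson interval 0.979 to 0.986), and 262041 reads in M2, 0.891% (0.8875 to 0.894). Levels of a gene in the libraries are given in CPM, the reads of a gene per 1000000 reads of the library, over library sizes scaled by the trimmed mean of M values, and a log2 fold difference is that of M2 over ctrl with 1 read added to each count. Its 95% Clopper-Pearson interval covers counting error only, and a count of 0 allows up to 3 reads. The labelled cell type was checked by the epithelial genes Epcam (20919 and 22821 reads in ctrl and M2), Cdh1 (21903 and 19537) and Cldn4 (3254 and 3669), and by the myoepithelial genes Acta2 (24752 and 26655) and Myh11 (28173 and 28442). Of the same myoepithelial list, Oxtr was called lower in M2 (8324 and 1920), and Cnn1 and Trp63 were not called. Of 8 macrophage markers, Ptprc, Adgre1, Tyrobp and Fcer1g were at 0 in both libraries, and the list summed to 9.90 CPM in ctrl and 9.02 CPM in M2. Most of its reads were those of Cd68 (170 and 165 reads in ctrl and M2) and Csf1r (94 and 92), followed by Ctss (5 and 2). The list of 5 fibroblast markers summed to 262 and 123 CPM, with Col1a2 called lower (4463 and 1457 reads), Dcn higher (51 and 157) and none at 0. The 3 endothelial markers had few reads (Pecam1 33 and 76, Kdr 11 and 0, Cdh5 11 and 2), the first called higher and the others lower. What part these cell types had in the keratin values was not tested.

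Both libraries were dominated by the same few keratins, whereas the 8 stratified-squamous keratins with enough reads were all lower in M2. As ratios of CPM with no read added, they ran from 2.10-fold lower (Krt80) to 118.7-fold lower (Krt4, 679 and 6 reads). Of these 8, 5 had at least 10 reads in both libraries, while Krt1, Krt4 and Krt77 passed the read filter through ctrl, where they were high. Of the 54 members, 15 had no read in either library, 11 had 1 to 9 reads in total and 28 had at least 10 reads and were measured. Called here means at least 2-fold apart with an interval that excludes equal levels. Of the 28 members, 6 were called higher and 14 lower in M2, whereas 8.45% of the 19233 genes measured were called higher and 6.8% lower. The median log2 fold difference of the 28 was -1.01, against -0.0032 for all genes measured. A low filter of this kind lets a gene in through the library where it is high, and 8 of the 28 had fewer than 10 reads in one library, all of them called. With at least 1 CPM asked of both libraries, 19 members were left, 2 of them higher and 9 lower, while 5.46% of the 14590 genes left were higher and 4.0% lower (9.46% in either direction, against 15.3% without that filter). At a 4-fold threshold 1 member was higher and 9 were lower, against 3.2% and 2.57% of all genes, 5.77% in all.

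**Figure D1:**
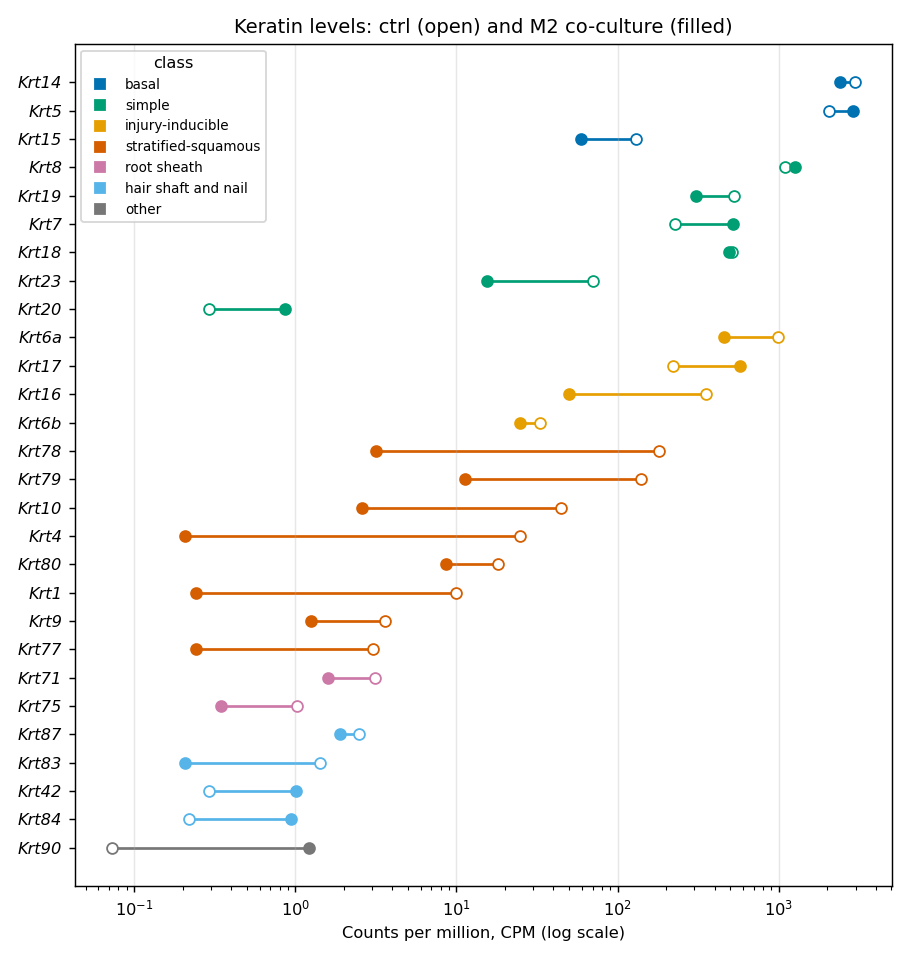
Level of each of the 28 measured keratins in CPM on a log axis, with ctrl as open and M2 as filled circles and colour for the class. Krt5, Krt14, Krt8 and Krt18 have both circles close together, and the 8 stratified-squamous keratins are all further left in M2, with Krt4 going from 24.7 to 0.208 CPM.

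The basal and simple classes took a larger share of the keratin reads in M2, as squamous and injury-inducible reads were fewer. As a share of the library, basal keratins stood at 0.5275% and 0.5246%, and simple keratins at 0.247% and 0.254%. Basal keratins (Krt5, Krt14 and Krt15) took 53.7% of keratin reads in ctrl and 58.9% in M2, and simple keratins (Krt7, Krt8, Krt18, Krt19, Krt20 and Krt23) took 25.2% and 28.6%. The injury-inducible keratins (Krt6a, Krt6b, Krt16 and Krt17) went from 16.6% to 12.2%. The 13 stratified-squamous keratins went from 4.43% (95% Wilson interval 4.35 to 4.51) to 0.307% (0.287 to 0.329). Hair root sheath keratins held 0.0442% and 0.0233%, and hair shaft and nail keratins 0.0488% and 0.0462%. The 8 members with the most reads over both libraries (Krt14, Krt5, Krt8, Krt6a, Krt19, Krt18, Krt17 and Krt7) made up 89.3% of keratin reads in ctrl and 98.0% in M2.

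**Figure D2:**
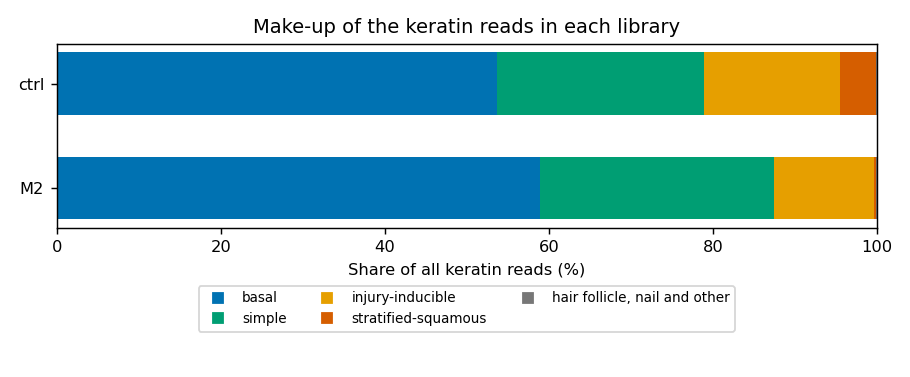
Share of all keratin reads in percent, by class, in the ctrl and the M2 library. The stratified-squamous class fills 4.43% of the ctrl bar and 0.307% of the M2 bar, while the basal class widens from 53.7% to 58.9%; hair follicle, nail and other keratins are too few to be seen.

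The basal keratins did not share a direction. Krt14 (chr11:100203162-100207548), the type I partner of the basal pair, counted 81991 reads (ctrl) and 68968 reads (M2), a difference on the log2 scale of -0.32 (95% interval -0.33 to -0.30). Krt5 (chr15:101707070-101712891), its type II partner, had 56383 and 83619 reads, a difference of 0.50 (0.48 to 0.51). Neither reached 2-fold. Krt15 (chr11:100131758-100135928), a type I keratin of the basal layer that is used as a marker of hair follicle stem cells, had 3589 and 1705 reads and was called lower, by -1.14 (-1.23 to -1.06). Summed over the class, the difference was 0.05 (0.04 to 0.06), and it became -0.0081 when libraries were scaled by total reads, so the sum has no stable direction.

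Per length, in RPKM (CPM divided by gene length in kilobases), Krt14 stood at 1698 in ctrl and 1361 in M2, and Krt5 at 937 and 1325. The ratio of Krt14 to Krt5 was therefore 1.81 and 1.03 in the respective libraries, changing by -0.82 in log2 units (-0.84 to -0.80). The balance of the whole family rested on this pair. Over all members, the ratio of type I to type II keratins per length changed by -0.39 in log2 units (-0.41 to -0.37), from 1.31 to 1.002. Without Krt5 and Krt14 the ratio was 0.936 and 0.968, a change of 0.0478 in the other direction.

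The abundant luminal pair was nearly level. Krt8 (chr15:101996711-102004342) had 29888 and 36348 reads, which is 0.21 on the log2 scale (0.19 to 0.24). Krt18 (chr15:102028216-102032026), its type I partner, is the single type I gene that lies in the type II cluster, next to Krt8, and had 14001 and 14225 reads, a difference of -0.05 (-0.08 to -0.01). The other simple keratins were further apart. Krt7 (chr15:101411043-101430313), a type II keratin of ducts and glands, rose from 6227 to 14885 reads, by 1.19 (1.15 to 1.23). Krt19 (chr11:100140810-100148665), the type I keratin often found with it, had 14538 and 8899 reads, a difference of -0.78 (-0.82 to -0.74) that was not called. Per length, the ratio of Krt19 to Krt7 changed by -1.97 in log2 units, from 8.88 to 2.27 (-2.02 to -1.91). The table gives Krt7 a length of 7055 bases for a coding length of 1371, so its level per length is understated in both libraries alike.

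Krt23 (chr11:99477974-99493137), a type I keratin of glandular and gut epithelia, fell from 1923 to 445 reads, by -2.18 (-2.33 to -2.03). Krt20, known from gut and bladder lining, had 8 and 25 reads and was called higher, by 1.46 (0.38 to 2.93). The simple class as a sum differed by 0.10 (0.08 to 0.11), a value that went to -0.0008 without Krt8, and per length it was slightly lower in M2 (1301 against 1329 RPKM), so it too has no stable direction. The ratio of basal to simple keratins per length was 2.04 with ctrl and 2.09 with M2, changing by 0.0362 (0.0172 to 0.0552) in log2 units. With coding lengths in place of the table's lengths, an alternative chosen after seeing the data, the change was -0.0594, and with Krt5 and Krt14 against Krt8 and Krt18 alone it was -0.0931, so no direction can be given.

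Outside the keratins, the 6 genes listed as luminal markers, Elf5, Kit, Foxa1, Esr1, Pgr and Prlr, were all called lower in M2. Their log2 fold differences ran from -2.54 (Pgr) to -1.11 (Elf5), and 6.8% of all genes measured were called lower. The list was chosen with earlier results of these data known, so its count is not independent of them. Gata3, a luminal factor that is listed here among the regulators of keratin genes, was not called (2971 and 2896 reads, -0.11). What part these luminal genes had in the keratin values was not tested. Of the 5 myoepithelial markers, Oxtr was called lower (8324 and 1920 reads), and Acta2, Myh11, Cnn1 and Trp63 were not called.

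The injury-inducible keratins split. Krt16 (chr11:100246091-100248902), a type I keratin of wounded and rapidly renewing skin, fell from 9775 to 1433 reads, by -2.84 (-2.92 to -2.76). Krt17 (chr11:100256217-100261029), its neighbour on the chromosome, had 6051 and 16592 reads and rose by 1.39 (1.34 to 1.43). Per length, the ratio of Krt17 to Krt16 changed by 4.23 in log2 units, from 0.625 to 11.7 (4.13 to 4.32). Their type II partner Krt6a (chr15:101689932-101694307) fell from 27168 to 13157 reads, by -1.12 (-1.15 to -1.09). Krt6b (chr15:101676034-101680289) had 910 and 716 reads, a difference of -0.41 (-0.56 to -0.27). The class sum of -0.53 (-0.55 to -0.51) rested on Krt6a and was 0.094 without it.

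Members of this class are close copies, so coding sequences of GENCODE M21 (GRCm38) were compared to see how far reads could tell them apart. A stretch of 60 coding bases on the minus strand is shown for the type I genes whose values diverged, Krt14 (chr11:100205644-100205703, coding bases 544 to 603), Krt16 (chr11:100247880-100247939, coding bases 520 to 579) and Krt17 (chr11:100259718-100259777, coding bases 433 to 492). Capitals mark bases that differ from Krt14, 19 in Krt16 and 11 in Krt17. The stretch is the first without gaps in which each gene differs from Krt14 at or above its mean rate. It therefore does not rank Krt16 and Krt17 by closeness, and over the whole coding sequence Krt16 was the closer to Krt14.
Krt14: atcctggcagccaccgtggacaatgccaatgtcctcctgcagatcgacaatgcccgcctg
Krt16: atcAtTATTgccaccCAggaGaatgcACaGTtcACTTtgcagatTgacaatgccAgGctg
Krt17: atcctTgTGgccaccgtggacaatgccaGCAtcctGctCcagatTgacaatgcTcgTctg

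Over the aligned coding sequence, Krt14 shared 86.5% of bases with Krt16 and 84.1% with Krt17, and Krt16 shared 78.2% with Krt17. Every stretch of 100 coding bases of Krt17 occurred in no other gene's transcript, and neither did 96.6% of those of Krt14. In Krt16, 27.2% of such stretches occurred in another gene's transcript, mostly in Gm11597 (507 and 48 reads), and 3.52% in another keratin. Summing Krt14, Krt16 and Krt17 gave a log2 fold difference of -0.24, which has the opposite sign to Krt17 alone, as Krt14 holds most of the summed reads. The read length is not given in the sources used here, and shorter stretches were shared more often. Of 50-base stretches, 16.8% in Krt14, 41.9% in Krt16 and 4.8% in Krt17 occurred in another gene's transcript.

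The type II copies are far closer. Their first 60 coding bases are shown, on the minus strand at chr15:101694189-101694248 for Krt6a and chr15:101680164-101680223 for Krt6b. This stretch was picked by the same rule and differs at 2 bases, in capitals in Krt6b.
Krt6a: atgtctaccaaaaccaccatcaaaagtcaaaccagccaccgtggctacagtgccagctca
Krt6b: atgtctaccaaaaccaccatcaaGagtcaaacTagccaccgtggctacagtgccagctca

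Krt6a and Krt6b were identical at 97.8% of aligned coding bases, with a longest identical run of 280 bases. Of the 100-base stretches of Krt6a, 44.4% also occurred in another keratin, with Krt6b as the closest. Another close copy, Gm5478, had 3 and 22 reads. The division of reads between Krt6a and Krt6b is therefore uncertain, whereas their sum, -1.09 on the log2 scale, differed little from Krt6a alone. For Krt8, 22.9% of 100-base stretches were shared with the pseudogene Krt8-ps, which had 292 and 356 reads. For Krt5, 4.9% of 100-base and 15.6% of 50-base stretches occurred in another gene's transcript, most often that of Krt6a. Krt1, Krt4, Krt77, Krt78, Krt79, Krt7, Krt9, Krt19, Krt20, Krt23 and Krt84 shared no stretch of 50 bases or more with any other gene.

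The stratified-squamous keratins formed the class with the widest difference. All 8 measured members were called lower in M2, 2 of the 13 had no read in either library, and the other 3 had fewer than 10 reads in total. Only 5 of the 8 had at least 10 reads in both libraries, as Krt1, Krt4 and Krt77 had fewer in M2. The summed level went from 426 CPM in ctrl to 27.9 CPM in M2, 15.3-fold lower, with a log2 fold difference of -3.93 (-4.04 to -3.83). Without Krt78, which had the most reads, the difference was -3.31.

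Krt78 (chr15:101946004-101954287), a type II keratin of differentiated squamous layers, fell from 4973 to 91 reads, by -5.83 (-6.16 to -5.54). Krt79 (chr15:101929332-101940324), which marks cells at the opening of the hair follicle, fell from 3863 to 326 reads, by -3.63 (-3.80 to -3.47). Krt10 (chr11:99385254-99389364), the type I keratin of the cornifying pair, fell from 1228 to 75 reads, by -4.08 (-4.46 to -3.77). Its partner Krt1 (chr15:101845428-101850786) fell from 273 to 7 reads, by -5.17 (-6.68 to -4.29). Both members of this pair were thus lower.

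Krt4 (chr15:101918536-101924735), the type II keratin of moist squamous lining, fell from 679 to 6 reads, by -6.67 (-8.34 to -5.76). Krt13, the type I keratin with which it pairs in such tissue, had 7 reads and 1 read, too few to be measured. The ctrl library thus held Krt4 with next to no reads of its usual partner. Krt80 (chr15:101349571-101370125), a type II keratin of many differentiating epithelia, had 501 and 250 reads, a difference of -1.07 (-1.30 to -0.85). Krt9, the keratin of palm and sole skin, had 99 and 36 reads (-1.50, -2.12 to -0.96), and Krt77, found in sweat gland ducts, had 84 and 7 reads (-3.48, -5.01 to -2.55).

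**Figure D3:**
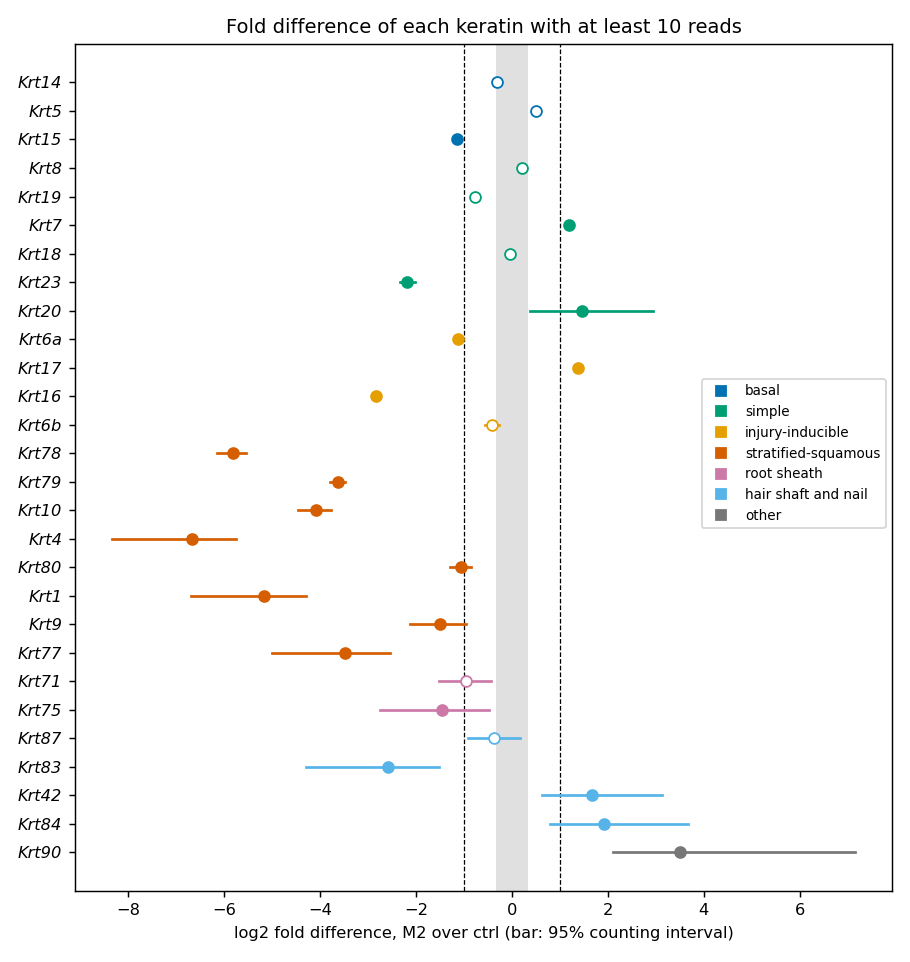
Log2 fold difference of M2 over ctrl for each of the 28 measured keratins, with 95% counting intervals as bars, filled circles for called members, dashed lines at 2-fold and a grey band for the middle 50% of all genes measured. All 8 stratified-squamous members lie left of the dashed line at -1, from -6.67 (Krt4) to -1.07 (Krt80), while Krt16 (-2.84) and Krt17 (1.39) lie on opposite sides.

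Most squamous genes measured outside the keratins were lower as well, in a list chosen with earlier results of these data known. Of 10 such genes listed, 7 were measured, 5 were called lower and 1 higher, where 6.8% and 8.45% of all genes measured were. The summed level of the list was 84.2 CPM in ctrl and 12.0 CPM in M2. Dsg1a, a desmosomal cadherin of squamous layers, had 1405 and 14 reads. The envelope genes Sprr1a (445 and 76 reads), Ivl (186 and 31) and Lor (23 and 10) and the keratinocyte protein Krtdap (38 and 12) were lower. Sprr1b had 9 and 22 reads and was higher, and Tgm1, which crosslinks the envelope, had 204 and 170 reads and was not called.

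Members of a class often lie side by side in the genome. The type I cluster on chromosome 11 spans 1037.1 kb with 27 members, of which 10 were measured, 3 called higher and 5 lower. The chromosome 15 cluster spans 682.5 kb with 27 members, of which 18 were measured, 3 called higher and 9 lower. The longest run of neighbouring measured members with the same call was that of Krt1, Krt77, Krt4, Krt79 and Krt78, 5 genes within 108.9 kb (chr15:101845428-101954287), all lower, with Krt76 among them unmeasured at 5 and 4 reads. The next keratins along the chromosome, Krt8 and Krt18, were not called. Among the keratins of chromosome 11, Krt16 (lower) is followed by Krt17 and Krt42 (both higher).

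**Figure D4:**
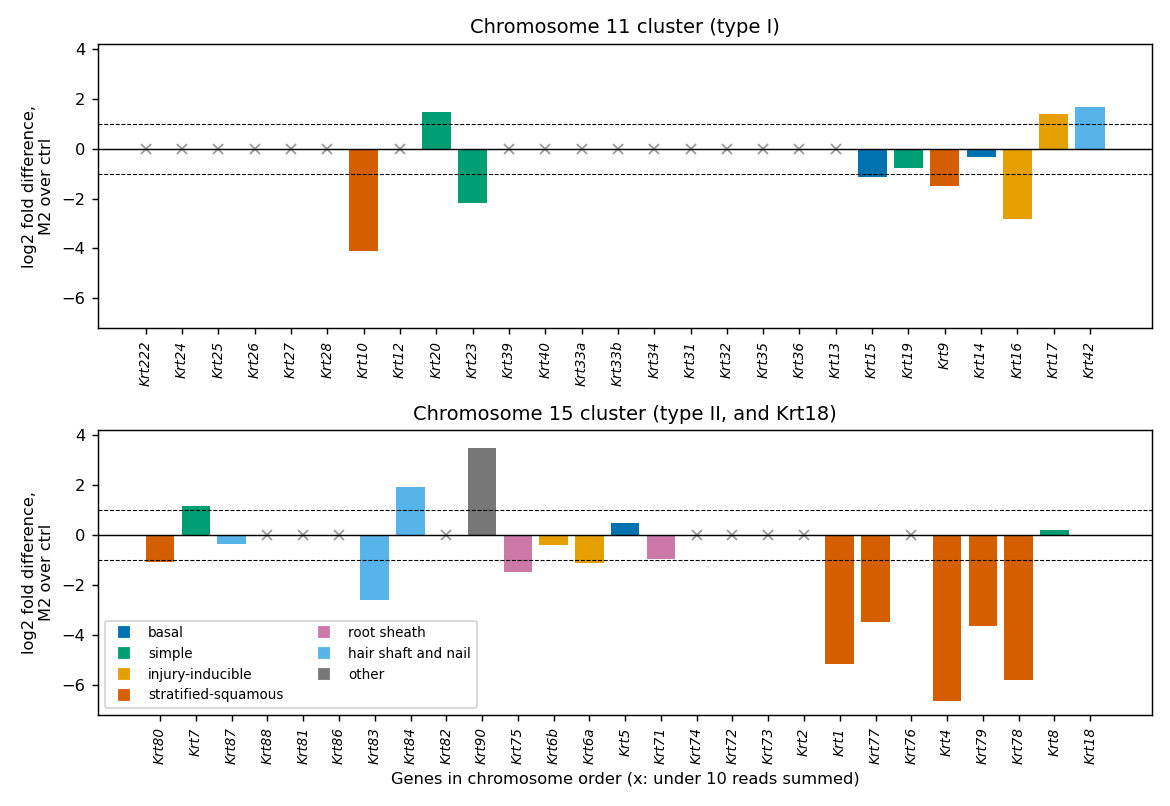
Log2 fold difference of M2 over ctrl for the keratins in their order along chromosome 11 (top) and chromosome 15 (bottom), coloured by class, with crosses for members under 10 reads in total and dashed lines at 2-fold. The run from Krt1 to Krt78 on chromosome 15 points down as far as -6.67, and Krt8 and Krt18 beside it stay near 0.

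Promoter windows of RefSeq (GRCm38.p6), 250 bases before to 50 after the start site, were found for 36 of the 54 members and 17 of the 28 measured. The windows of Krt79 (chr15:101940275-101940574, minus strand) and Krt78 (chr15:101954238-101954537, minus strand) are shown as neighbours that were both lower, with that of Krt10 (chr11:99389315-99389614, minus strand) from the other cluster. Those of Krt5 (chr15:101712856-101713155, minus strand) and Krt7 (chr15:101412153-101412452, plus strand) stand for members with more reads in M2. The Krt7 window lies inside the gene interval given above, at the start of a protein-coding transcript that begins downstream of the gene's outer edge. The window listed for Krt14 starts inside that gene and is not shown, though it is in the counts of windows. Each runs 5′ to 3′ along the gene, and capitals mark TATAAA or ATAAAA, searched on both strands.
Krt79: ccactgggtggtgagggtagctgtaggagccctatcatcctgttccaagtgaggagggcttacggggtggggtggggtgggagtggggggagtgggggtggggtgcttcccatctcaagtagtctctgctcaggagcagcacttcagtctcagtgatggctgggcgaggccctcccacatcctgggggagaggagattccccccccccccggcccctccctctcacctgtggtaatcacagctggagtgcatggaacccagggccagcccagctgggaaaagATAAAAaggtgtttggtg
Krt78: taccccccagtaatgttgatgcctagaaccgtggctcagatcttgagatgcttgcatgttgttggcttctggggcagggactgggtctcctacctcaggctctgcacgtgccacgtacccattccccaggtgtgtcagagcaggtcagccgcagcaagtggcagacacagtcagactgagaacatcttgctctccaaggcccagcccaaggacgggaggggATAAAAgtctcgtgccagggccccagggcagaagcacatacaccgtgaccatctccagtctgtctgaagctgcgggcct
Krt10: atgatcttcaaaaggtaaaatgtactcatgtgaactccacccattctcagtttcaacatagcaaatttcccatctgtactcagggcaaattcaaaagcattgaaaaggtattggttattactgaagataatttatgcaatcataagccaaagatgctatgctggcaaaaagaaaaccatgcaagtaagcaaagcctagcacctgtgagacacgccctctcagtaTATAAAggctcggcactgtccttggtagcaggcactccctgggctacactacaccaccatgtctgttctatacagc
Krt5: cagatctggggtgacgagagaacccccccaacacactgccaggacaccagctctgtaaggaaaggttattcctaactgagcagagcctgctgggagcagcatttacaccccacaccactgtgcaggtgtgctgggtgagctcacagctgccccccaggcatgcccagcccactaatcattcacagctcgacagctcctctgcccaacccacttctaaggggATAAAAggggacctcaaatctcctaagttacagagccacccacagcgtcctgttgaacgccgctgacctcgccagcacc
Krt7: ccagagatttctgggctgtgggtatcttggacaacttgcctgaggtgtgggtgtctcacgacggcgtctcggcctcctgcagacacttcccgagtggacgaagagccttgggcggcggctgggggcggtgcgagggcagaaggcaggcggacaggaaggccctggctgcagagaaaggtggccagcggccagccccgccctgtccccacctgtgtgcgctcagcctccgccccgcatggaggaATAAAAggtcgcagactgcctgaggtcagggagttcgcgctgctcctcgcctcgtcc

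The letters TATAAA, the core of a TATA box, were present in 19 of 37 keratin windows (51.4%; Krt13 has 2 windows) against 13.6% of all 32851 windows. ATAAAA, which was added after the windows had been read and which overlaps TATAAA where another A follows, was present in 22 of 37 (59.5%) against 18.5%. TATAAA was in 1 of 7 windows of members called lower and in 3 of 5 windows of members called higher, and ATAAAA in 4 of 7 and 3 of 5, numbers too small to set the groups apart. In Krt10 TATAAA began 26 bases before the start site, and in Krt5 and Krt78 ATAAAA began 29 bases before it. The counts take matches anywhere in the window. The printed ATAAAA lay at position -7 from the start site in Krt7 and at 33, inside the transcript, in Krt79. Among members called higher, TATAAA lay at -29 in Krt20, at 20 in Krt42 and at -206 on the other strand in Krt84. TGANTCA, the letters that AP-1 factors bind, was in both Krt13 windows and in no other keratin window, against 7.81% of all windows. Among members with no read in either library, 9 of 12 windows held TATAAA. Such matches describe letters and not sites in use.

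Hair keratins were near the limit of detection. Of 9 root sheath keratins, Krt71 had 86 and 46 reads (-0.96, -1.52 to -0.44) and was not called, Krt75 of the companion layer had 28 and 10 reads and was called lower (-1.47, -2.76 to -0.47), and the others had too few reads. Krt71 passed 2-fold when libraries were scaled by total reads. Of 17 hair shaft and nail keratins, 4 were measured. Krt87 had 68 and 55 reads and was not called, and Krt83 had 39 and 6 reads and was called lower (-2.58, -4.30 to -1.52). The nail keratin Krt42 had 8 and 29 reads (1.67, 0.62 to 3.13) and Krt84 had 6 and 27 reads (1.93, 0.79 to 3.67), and both were called higher. Krt83 and Krt87 shared 28.5% and 26.5% of 50-base stretches with other hair keratins, so their reads could be exchanged. The sum of the hair shaft and nail class, 129 reads in ctrl and 121 in M2, did not differ detectably at this depth (-0.16, -0.53 to 0.21).

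Krt90, a type II gene outside these classes, had 2 and 35 reads, a ratio of 16.7 with a counting interval of 4.29 to 143. Krt222, a short type I-like gene, had 2 reads in each library. Of the 15 members without a read, 13 belong to the hair follicle and nail classes, and Krt12 of the cornea and Krt24 complete them.

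Genes that overlap keratins on the opposite strand were counted too. Exons of 9 members overlap those of another gene, among them Krt5 with Gm44323 (3713 and 5387 reads), Krt6a with Gm44342 (1470 and 628 reads), Krt6b with Gm44383 (249 and 105 reads) and Krt10 with Gm11940 (254 and 3 reads). Each of these overlapping genes had its higher level in the same library as its keratin. The other 5 pairs include a gene with fewer than 10 reads in total, and Krt75 (lower) lies over Gm44460 with 2 and 3 reads. The use of strand is not given in the sources used here, so reads inside the overlap cannot be assigned to a gene. For the 4 pairs with values the overlap is 129 bases, or 146 in Krt10, and 96.9% of the 50-base coding stretches of Krt10 occurred in no other gene.

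Among genes for proteins that anchor keratin filaments, the number called was near the share over all genes. Of 11 linker and partner genes measured, 0 were called higher and 1 lower, where 8.45% and 6.8% of all genes were, and their median log2 fold difference was -0.27. The gene called lower was Evpl, which encodes envoplakin of the cornified envelope, with 2896 and 1261 reads (-1.27). The members with the most reads were Dsp, the desmosomal plakin that holds keratin (31886 and 31135 reads, -0.10), Pkp1 (29823 and 17491 reads, -0.84) and Dst, the hemidesmosomal linker (15972 and 12620 reads, -0.41).

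Among transcription factors known to act on keratin genes, 9 were measured and 1 was called in each direction, a count near the 8.45% and 6.8% of all genes. Foxn1, a factor of hair keratin expression, had 102 and 262 reads (1.28). Hoxc13, another hair keratin factor, had 18 and 0 reads, and its counting interval on the log2 scale ends at -2.21. Trp63, which drives Krt5 and Krt14, had 5445 and 6331 reads (0.15), Gata3 had the values given above, and Klf5 had 1844 and 1524 reads (-0.34).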

How the data were processed

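RNA-seq libraries of 1 ctrl and 1 M2 culture were compared, with groups taken from the sample labels. The authors deposited raw counts for every gene, not normalized, beside gene lengths and exon coordinates. A microarray is named in the series text, but the values are whole-number counts of sequencing reads. Per the labels the build was GRCm38 (mm10), and all 54 keratins overlap the gene of that name in GENCODE M21. The aligner, counting tool, strand use and read length are not given in the sources used here. Per the labels, a SMARTER mRNA kit was used, and the labels and the study's methods name different reagents for the RNA extraction.

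Genes with at least 10 reads summed over both libraries were measured (19233). Scaling used edgeR's trimmed mean of M values, from edgeR 4.0.16 under R 4.3.3 (factors 1.02 and 0.980). The log2 fold difference used a pseudocount of 1. Intervals of fold differences are 95% Clopper-Pearson, those of shares are Wilson, and those of ratios between members take reads as Poisson, all computed in Python 3.11.15 with scipy 1.17.1. They cover counting error only, since no molecular identifiers are stated. With 1 library per group no test was run and DESeq2 1.42.0 served only for an alternative scaling. The calling step was also run on simulated counts with known differences. The keratin classes, the other gene lists and the members to be named were chosen with earlier results of these data known. Members with at least 100 reads in a library were named with their values, those with 10 to 99 reads with their reads, and of other lists the called genes and the 3 with the most reads. Alternatives were other scalings, pseudocount, filters, thresholds, lengths and summed paralogs. Hair keratins and list members that are not in the table used were not analysed here.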

Additional observations from a re-analysis of the deposited data

How the results depend on the processing

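Of the 28 measured members, 28 kept their direction under the scalings by total reads, DESeq2 size factors and upper quartile, a pseudocount of 5 and a filter of at least 1 read, and so did the 19 with 1 CPM or more in each library. The one call that a scaling changed was that of Krt71, which passed 2-fold with total reads. Under that scaling the median of all genes measured was -0.0622. With that CPM filter, which drops members near 0 on either side, 2 members were called higher and 9 lower. With a 4-fold threshold there were 1 and 9. With reads of close paralogs summed, Krt17 took the value of -0.24 of its group, in which Krt14 holds most reads.

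Sums of abundant classes depended on scaling and on single members. With total reads the basal sum was -0.0081, the simple sum 0.0401 and the injury-inducible sum -0.59. Without the member with the most reads, the basal sum was 0.44 (no Krt14), the simple sum -0.0008 (no Krt8), the injury-inducible sum 0.094 (no Krt6a) and the stratified-squamous sum -3.31 (no Krt78). The log2 change of the basal to simple ratio was -0.0482 with reads not divided by length, -0.0931 with Krt5 and Krt14 against Krt8 and Krt18, 0.0583 without Krt15 and, as alternatives chosen after seeing the data, -0.0594 with coding lengths and 0.0845 without Krt7. That of type I to type II was -0.43 with reads not divided by length, -0.46 with coding lengths and 0.0478 without Krt5 and Krt14. Depth limits the hair keratins, where most members stayed under 10 reads. No paired analysis was possible because ctrl and M2 are single libraries, and no replicate could be left out.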

Other observations

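Intermediate filament genes other than keratins were also counted. Of 11 measured, 3 were called higher and 1 lower in M2, where 8.45% and 6.8% of all genes measured were. Their median log2 fold difference was 0.58, against -0.0032 for all genes measured. Nes, which encodes nestin, a filament protein known from stem and progenitor cells, went from 906 to 5736 reads, by 2.59 on the log2 scale. The neurofilament genes Nefm (22 and 69 reads) and Nefl (5 and 28 reads) were also called higher. Synm, which encodes synemin, a filament protein of muscle and myoepithelium, had 480 and 240 reads and was called lower by -1.07. Vim, the vimentin gene, had 5425 and 8525 reads (0.58), and Lmna, which encodes lamins of the nuclear envelope, had 13953 and 13510 reads (-0.12).

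Krt8-ps, Krtcap2 and Krtcap3 were not called, and keratin-associated protein genes were not analysed here. Krtcap2, a subunit of the enzyme that attaches sugars to nascent proteins, had 410 and 558 reads (0.37), and Krtcap3 had 288 and 358 reads (0.24).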
